A study of Mus musculus with 8 samples.

Results

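Receptors for histamine (Hrh4, Hrh2), prostanoids (Ptger1, Ptger2, Ptger4, Ptgir), adenosine (Adora2a, Adora2b) and leukotriene B4 (Ltb4r1) are described here in IL-18Rα hi and IL-18Rα hi-depleted endogenous CD8+ T cells. The 9 genes were chosen by name as receptors of small mediators out of 47493 genes in the table, and Hrh4 was chosen for its rise in these same libraries, so its values are given as a description with no test. The working name of the set also lists catecholamine receptors, but none of the 9 genes is one, and those receptors are counted separately. The 8 libraries came from 4 C57BL/6 females, which were 6 to 8 weeks old when they received 200000 B16F10 melanoma cells on day 0. Every mouse was given 300 mg/kg cyclophosphamide on day 3, 2000000 Thy1.1 Pmel-1 cells (CD8+ T cells with a transgenic receptor for a melanoma antigen) on day 5, 10000 IU of IL-2 for 3 days from day 5, and 200 μg of anti-CD4 (clone GK1.5) weekly for 3 weeks from day 10. On day 25, Thy1.1-negative CD8+ T cells were isolated with beads from inguinal lymph nodes and spleen of each mouse and loaded on a magnetic column with an antibody against IL-18Rα. The retained cells are called IL-18Rα hi, and the cells that ran through are called flow-through. Thus, both fractions came from treated tumor-bearing mice, each mouse gave 1 library of each fraction, and no untreated mouse enters the comparison. The selection was by beads, and its purity was not analysed here.

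These receptors span the membrane and pass on the signal of a small molecule through G proteins. The histamine H2, prostaglandin EP2 and EP4, prostacyclin and both adenosine A2 receptors couple to Gs, which activates adenylyl cyclase, and the cyclic AMP that follows is known to restrain T-cell receptor signaling and cytokine production. EP1 signals mainly through calcium, whereas the histamine H4 receptor and BLT1, the leukotriene B4 receptor encoded by Ltb4r1, signal through Gi and are known for chemotaxis of leukocytes.

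Levels are FPKM, fragments counted per length of transcript and per depth of the library, and a fold change is a difference of log2(FPKM + 1), IL-18Rα hi minus flow-through. It was tested with limma over the 12166 genes that averaged 1 FPKM or more, and called at an adjusted p under 0.05. The depth estimated from the smallest steps in the table was 14454000 to 17539000 fragments per library. Il18r1, which encodes the selected protein, lay at 22.2 to 37.2 FPKM in flow-through and at 106.6 to 116.0 FPKM in IL-18Rα hi libraries. The summed FPKM of 7 CD8 T-cell markers was 1239 to 2351 in flow-through and 2303 to 2483 in IL-18Rα hi, and the first flow-through library had the lowest sum, together with the highest erythroid marker sum (514 FPKM against 117 to 259 in the other flow-through libraries). Fewer cells of a type and less RNA per cell cannot be told apart in such bulk libraries.

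Of the 8 receptors other than Hrh4, Ptger4, Adora2a and Ptger2 were higher in IL-18Rα hi at an adjusted p under 0.05, and none was called lower. Over all tested genes 14.1% were called higher, and because the set was composed with this contrast known, nothing is read from the comparison of these shares. There were 7 members that passed the filter on low values, while Ptgir and Adora2b did not and take their values from a fit without the filter over 22789 genes, of which 7.32% were called higher and 10.9% when mice were a block. Each of these 8 receptors was higher in IL-18Rα hi within 4 of 4 mice, a pattern that 29.2% of tested genes had. When mice were a block, 8 of the 8 receptors were called, against 22.2% of tested genes called higher in that fit. Under T-cell scaling, where each library is divided by the level of its CD8 T-cell markers, Ptger4 and Adora2a were called. In that fit 4.54% of tested genes were called higher. The 9 fold changes under this scaling ran from 0.05 to 2.16. Of the 8 receptors other than Hrh4, the libraries of the fractions did not overlap for 2, Ptger4 and Adora2a, where 16.4% of tested genes did not overlap and were higher in IL-18Rα hi. Ptgir and Adora2b are not among those tested genes, so this share is background only.

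**Figure D1:**
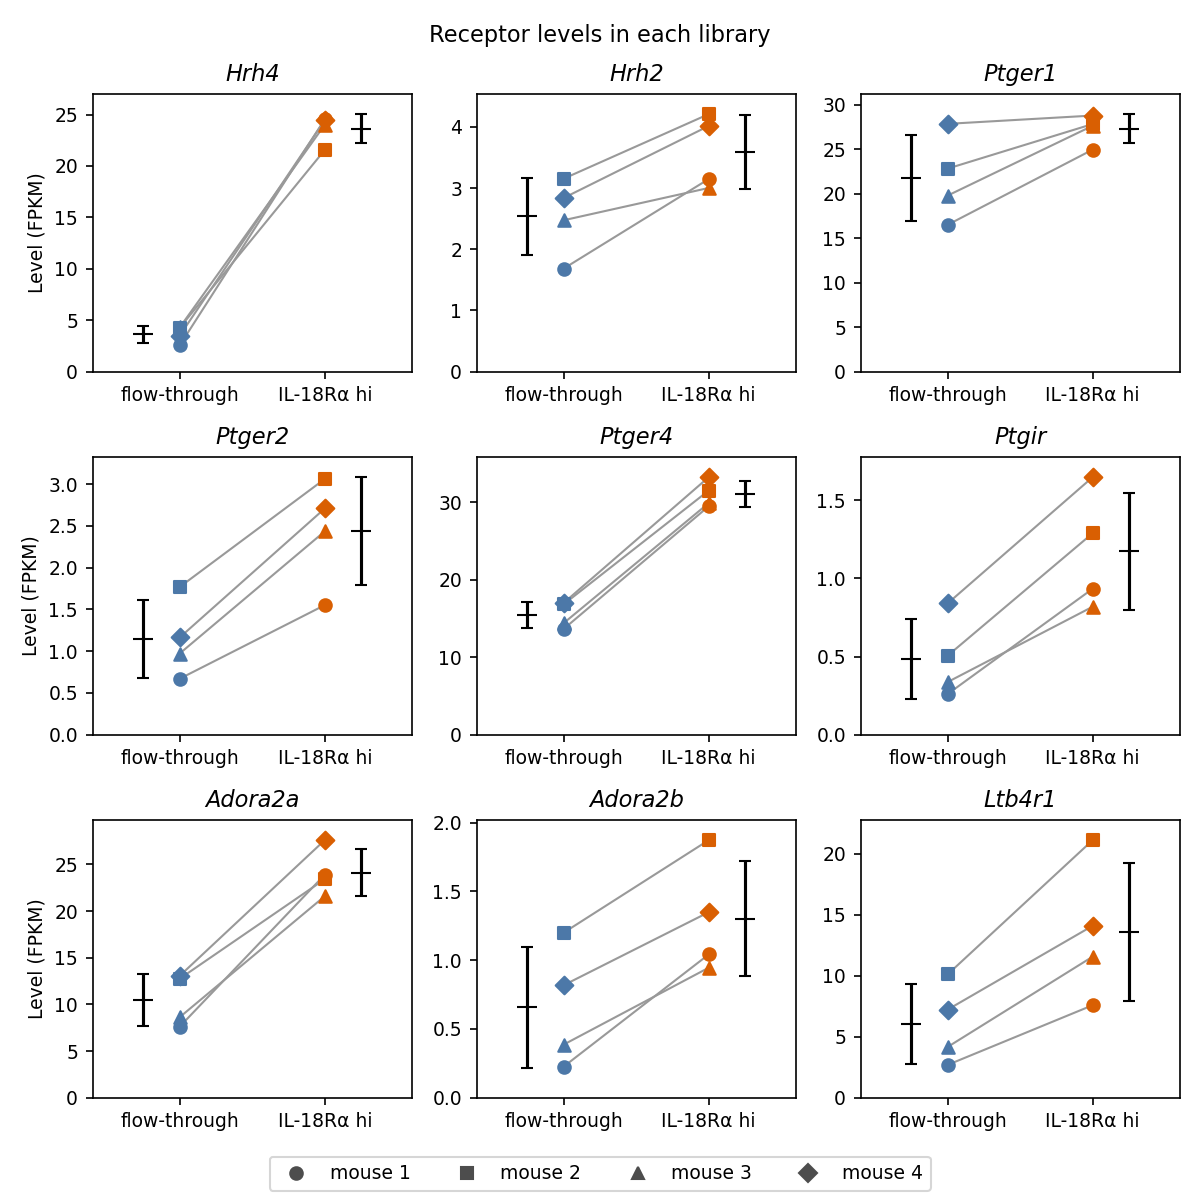
Level (FPKM, linear axis from 0) of each of the 9 receptor genes in the 4 flow-through (blue) and 4 IL-18Rα hi (orange) libraries, with symbols for mice, gray lines joining the fractions of 1 mouse, and bars for mean ± SD. Every line rises to the right, and the fractions do not overlap for Hrh4, Ptger4 and Adora2a.

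Of the prostaglandin E2 receptors, Ptger4 and Ptger2 were called higher in IL-18Rα hi and Ptger1 was not. Ptger4 encodes EP4, a Gs-coupled receptor of high affinity. Ptger4 (ENSMUSG00000039942, mm10, minus strand of chr15:5206661-5244187) was measured at 13.7, 16.8, 14.4 and 17.0 FPKM in the flow-through libraries of mice 1 to 4 and at 29.5, 31.5, 29.9 and 33.3 FPKM in their IL-18Rα hi libraries. The fractions did not overlap, and the libraries within each fraction lay close together. The means were 15.5 ± 1.70 and 31.1 ± 1.71 FPKM (SD, n = 4 each), a ratio of 2.01, and the fold change amounted to 0.96 on the log2 scale (SE 0.09, limma adjusted p = 0.000555). Ptger4 stayed called without any one library (0.91 to 1.01). When each library was scaled to the geometric mean of its CD8 T-cell markers, the fold change was 0.67 (adjusted p = 0.0417). That scaling moved the median of all tested genes to −0.29, so other values under it are to be read against this shift. Exons of Ptger4 shared 82 bases with Ttc33, a gene on the other strand whose level was 12.0 to 14.7 FPKM in flow-through and 12.8 to 15.1 FPKM in IL-18Rα hi, and 1015 bases with the pseudogene Gm15937, which was at most 0.180 FPKM in any library.

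Ptger2 encodes EP2, the other Gs-coupled receptor of prostaglandin E2, and its level was far below that of Ptger4. Ptger2 (ENSMUSG00000037759, plus strand of chr14:44988195-45003820) lay at 0.669, 1.77, 0.971 and 1.16 FPKM in flow-through and at 1.55, 3.06, 2.43 and 2.71 FPKM in IL-18Rα hi. The IL-18Rα hi library of mouse 1 was below the flow-through library of mouse 2, so the fractions overlapped. On the log2 scale the difference was 0.69 (SE 0.20, limma adjusted p = 0.0350). The call was lost without any one of 6 libraries, namely flow-through 1, 3 or 4 and IL-18Rα hi 2, 3 or 4, where the adjusted p was 0.0608 to 0.0966. It was also lost without the filter (adjusted p = 0.0657) and under T-cell scaling (0.52, adjusted p = 0.0958). Within a library, Ptger4 FPKM per Ptger2 FPKM was 9.53 to 20.4 in flow-through and 10.3 to 19.0 in IL-18Rα hi, which overlapped. Antisense Gm17173, which shares 246 exonic bases with Ptger2, lay at 0.199 to 0.807 FPKM in flow-through and at 0.540 to 0.944 FPKM in IL-18Rα hi.

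The 250 bases before the transcription start of Ptger4 and of Ptger2 are shown because these receptors of 1 ligand were both called higher in IL-18Rα hi and differ in level. They come from RefSeq on GRCm38.p6, the build of mm10, and run 5′ to 3′ on the strand of the gene from chr15:5244188-5244437 and chr14:44987861-44988110. Capitals mark GC boxes (GGGCGG or its reverse complement).
Ptger4: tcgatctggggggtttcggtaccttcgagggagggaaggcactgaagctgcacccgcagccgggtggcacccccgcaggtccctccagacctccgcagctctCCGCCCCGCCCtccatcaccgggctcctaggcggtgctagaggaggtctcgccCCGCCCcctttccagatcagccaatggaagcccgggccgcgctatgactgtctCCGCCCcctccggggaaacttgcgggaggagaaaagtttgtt
Ptger2: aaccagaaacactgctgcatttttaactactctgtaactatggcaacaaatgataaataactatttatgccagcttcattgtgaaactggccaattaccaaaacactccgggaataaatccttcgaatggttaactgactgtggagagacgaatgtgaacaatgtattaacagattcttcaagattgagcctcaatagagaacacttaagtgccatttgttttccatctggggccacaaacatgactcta
The Ptger4 stretch had 66.8% GC, 19 CpG dinucleotides and 4 GC boxes, 2 of them overlapping, whereas the Ptger2 stretch had 38% GC, 3 CpG and no GC box, beside medians of 52.4% GC and 6 CpG over 32851 RefSeq promoters of this length. The start of Ptger2 in RefSeq lies upstream of its start in the GENCODE annotation. Of the 9 genes, 6 were in that table (Hrh2, Ptger2, Ptger4, Ptgir, Adora2b, Ltb4r1), and 5 of them held a GC box, as did 32.7% of the 32851. The cyclic AMP response element (TGACGTCA, in 1.55% of all), its shorter form (TGACG, 17.8%), a T-box site (AGGTGTGA, 1.12%) and a nuclear receptor site (AGGTCA, 14.0%), each searched on both strands, did not occur in these 6 windows, and the first of these motifs holds the second. A match or its absence in a window describes letters and says nothing of a factor.

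Ptger1 encodes EP1, the calcium-coupled receptor of prostaglandin E2. Ptger1 (ENSMUSG00000019464, plus strand of chr8:83666678-83672753) was measured at 16.5, 22.8, 19.8 and 27.8 FPKM in flow-through and at 25.0, 27.8, 27.6 and 28.8 FPKM in IL-18Rα hi, so the fractions overlapped. It was 0.34 higher in IL-18Rα hi on the log2 scale (SE 0.14), with a limma adjusted p of 0.113, of 0.0296 when mice were a block and of 0.0286 without flow-through 4. Under T-cell scaling it was 0.05. The level of Ptger1 is uncertain, since reads of genes that overlap on opposite strands cannot be told apart where strand is not used, and by the methods of the study the strand setting of Cufflinks was left at its default, which does not use strand.

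Ptgir encodes the Gs-coupled prostacyclin receptor and was the lowest of the set. Ptgir (ENSMUSG00000043017, plus strand of chr7:16906490-16910905) lay at 0.260, 0.506, 0.337 and 0.840 FPKM in flow-through and at 0.934, 1.29, 0.819 and 1.65 FPKM in IL-18Rα hi. The fractions overlapped, since IL-18Rα hi 3 was below flow-through 4. In the fit without the filter the difference was 0.55 (SE 0.16, limma adjusted p = 0.0634), and the adjusted p was 0.0106 with mice as a block and 0.0448 without flow-through 4. It did not pass the filter, and its level of about 1 FPKM limits its precision.

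Of the adenosine receptors, Adora2a was called higher and Adora2b did not pass the filter. Adora2a encodes the adenosine receptor best known for inhibition of T cells. Adora2a (ENSMUSG00000020178, plus strand of chr10:75316877-75334784) was measured at 7.61, 12.7, 8.63 and 13.1 FPKM in flow-through and at 23.9, 23.4, 21.6 and 27.6 FPKM in IL-18Rα hi. No library of one fraction reached the other. The means were 10.5 ± 2.80 and 24.1 ± 2.52 FPKM (SD, n = 4 each), a ratio of 2.30, with ratios of 1.84 to 3.14 within mice. The fold change was 1.15 on the log2 scale (SE 0.17, limma adjusted p = 0.00297), it stayed called without any one library (1.03 to 1.26), and under T-cell scaling it was 0.87 (adjusted p = 0.0119).

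Adora2b, which encodes an adenosine receptor of lower affinity, was at low level. Adora2b (ENSMUSG00000018500, plus strand of chr11:62248984-62266453) lay at 0.226, 1.20, 0.386 and 0.818 FPKM in flow-through and at 1.04, 1.87, 0.945 and 1.35 FPKM in IL-18Rα hi, and the fractions overlapped. These values correspond to an estimated 7 to 38 fragments in flow-through and 30 to 58 in IL-18Rα hi. In the fit without the filter the difference was 0.49 (SE 0.21, limma adjusted p = 0.173), and the adjusted p was 0.0261 with mice as a block. Mouse 2 was highest in both fractions, as it was for Hrh2, Ptger2 and Ltb4r1. Adora2a FPKM per Adora2b FPKM was 10.6 to 33.7 in flow-through and 12.5 to 22.9 in IL-18Rα hi.

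Taking the 6 Gs-coupled receptors as 1 sum, flow-through libraries held 24.1 to 36.2 FPKM and IL-18Rα hi libraries 58.7 to 70.6 FPKM, a ratio of means of 2.07. Ptger4 made up 46.5% to 56.6% of this sum in flow-through and 47.1% to 51.0% in IL-18Rα hi, and Adora2a made up 31.6% to 36.5% and 35.8% to 39.8%. Both fractions thus drew most of their Gs-coupled receptor RNA from Ptger4 and Adora2a.

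Hrh4 encodes the H4 receptor, the histamine receptor of eosinophils, mast cells and some T cells. Hrh4 (ENSMUSG00000037346, plus strand of chr18:13006990-13022882) was measured at 2.56, 4.27, 4.30 and 3.50 FPKM in flow-through and at 24.5, 21.6, 24.0 and 24.4 FPKM in IL-18Rα hi. The fractions lay far apart, which is the property for which the gene was chosen. The means were 3.66 ± 0.820 and 23.6 ± 1.40 FPKM (SD, n = 4 each), a ratio of 6.47, and the ratio was 9.60, 5.05, 5.59 and 6.98 within mice 1 to 4. The fold change was 2.42 (SE 0.13), and 2.16 under T-cell scaling. The coefficient of variation of Hrh4 over the IL-18Rα hi libraries was 5.94%, near that of Ptger4 (5.52%) and well below that of Ltb4r1 (41.9%).

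Hrh2 encodes the Gs-coupled H2 receptor. Hrh2 (ENSMUSG00000034987, plus strand of chr13:54192129-54236180) lay at 1.68, 3.15, 2.47 and 2.84 FPKM in flow-through and at 3.15, 4.21, 3.00 and 4.02 FPKM in IL-18Rα hi, and the fractions overlapped. Hrh2 differed by 0.39 on the log2 scale (SE 0.16, limma adjusted p = 0.107), with an adjusted p of 0.0259 when mice were a block. Hrh4 FPKM per Hrh2 FPKM was 1.23 to 1.74 in flow-through and 5.12 to 8.00 in IL-18Rα hi, so within each library Hrh4 was the higher of the histamine receptors. Antisense Gm16578, with 145 exonic bases in common with Hrh2, was at most 0.70 FPKM. Of the remaining histamine receptors, which were named after their values were seen, Hrh1 was at 0.118 to 0.596 FPKM in flow-through and 0.384 to 1.35 FPKM in IL-18Rα hi, and Hrh3 was listed at 0 in every library.

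Ltb4r1 had the widest spread within a fraction among the members that passed the filter. Ltb4r1 (ENSMUSG00000046908, plus strand of chr14:55765962-55768494) was measured at 2.69, 10.1, 4.16 and 7.22 FPKM in flow-through and at 7.59, 21.1, 11.6 and 14.1 FPKM in IL-18Rα hi. The fractions overlapped, and in both the order of mice was 2, 4, 3, 1 from high to low. The means were 6.05 ± 3.30 and 13.6 ± 5.69 FPKM (SD, n = 4 each), a ratio of 2.25. Its fold change of 1.09 on the log2 scale (SE 0.38) had a limma adjusted p of 0.0649, and the adjusted p was 0.000456 with mice as a block, 0.0444 without IL-18Rα hi 1 and 0.0291 without flow-through 2. The same order of mice held in both fractions for Ptger2 and for the summed FPKM of 7 monocyte and macrophage markers (250, 669, 338 and 488 FPKM in flow-through of mice 1 to 4, and 666, 1449, 843 and 1265 FPKM in IL-18Rα hi). Of those markers, 4 of 7 were called higher in IL-18Rα hi and none was at 0 in any library. Neutrophil markers summed to 391 to 2266 FPKM and 419 to 2705 FPKM with 0 of 6 tested markers called, and the defining marker Ly6g was at most 0.447 FPKM in any library. The order 2, 4, 3, 1 also held in both fractions for the neutrophil sum and for the mast cell and basophil sum. It is thus not particular to the monocyte and macrophage markers. The part of these cells in the Ltb4r1 and Ptger2 values was not tested.

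**Figure D2:**
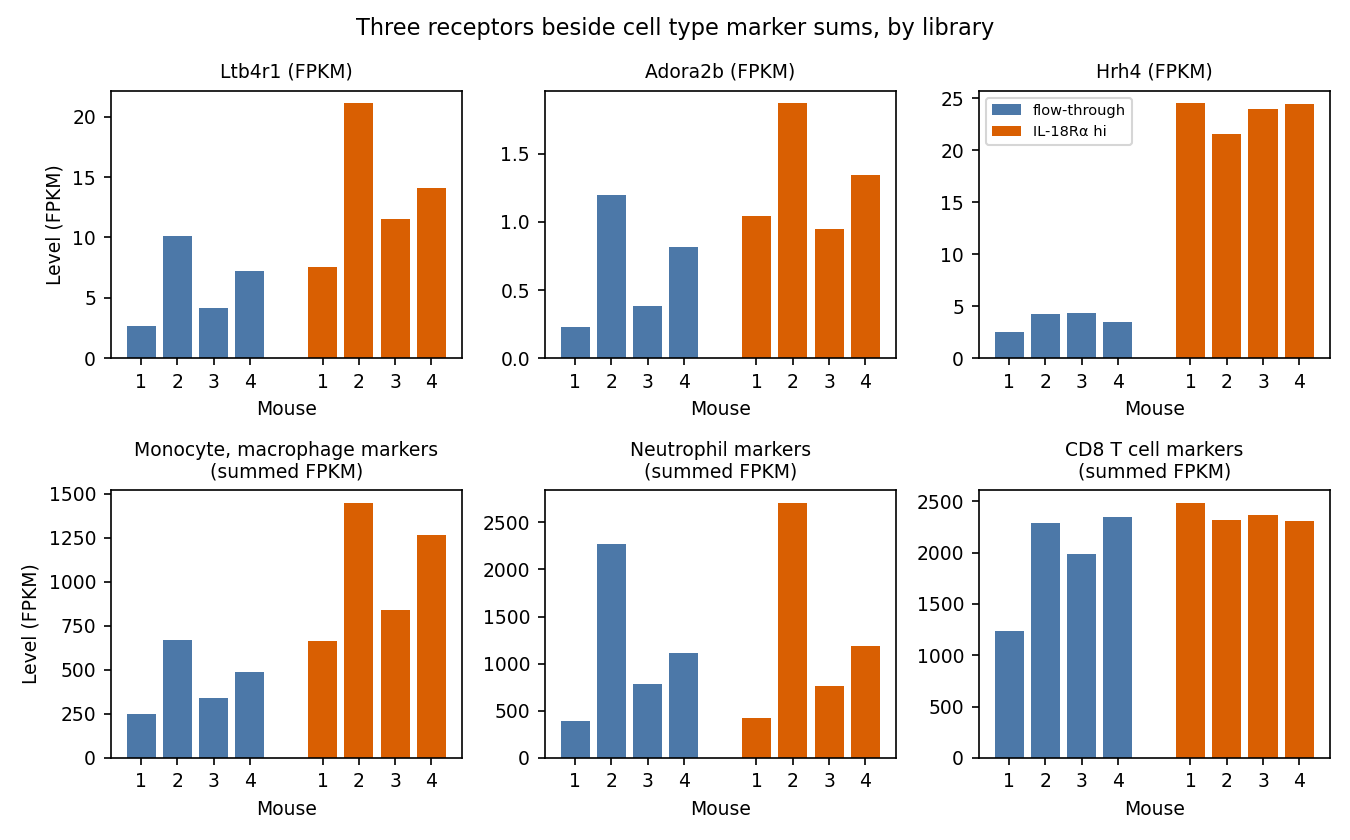
Level of Ltb4r1, Adora2b and Hrh4 (upper panels, FPKM) and summed FPKM of marker lists (lower panels) in each library, with bars for single libraries of mice 1 to 4 in flow-through (blue) and IL-18Rα hi (orange). Ltb4r1 follows the monocyte and macrophage sum and the neutrophil sum in its order of mice within each fraction. Hrh4 stays between 21.6 and 24.5 FPKM in IL-18Rα hi libraries.

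Markers of other cell types were detected in both fractions. Mast cell and basophil markers summed to 133 to 309 FPKM in flow-through and 274 to 626 FPKM in IL-18Rα hi. Of these 7 markers, Mcpt8 and Prss34 were called higher, Kit and Gata2 were called lower, and none was at 0. Eosinophil markers summed to 97.9 to 441 FPKM and 78.3 to 311 FPKM with 0 of 3 tested markers called. Dendritic cell markers (5 of 6 higher), NK cell markers (4 of 5), γδ T-cell markers (5 of 6) and CD4 T-cell markers (3 of 3) were called higher in IL-18Rα hi, with summed FPKM of 12.9 to 21.01 against 29.5 to 61.2, 12.9 to 24.3 against 35.1 to 82.0, 7.45 to 20.7 against 29.0 to 60.2 and 3.23 to 8.63 against 24.4 to 41.6. B-cell markers summed to 19.4 to 53.2 FPKM and 25.8 to 64.8 FPKM, with 0 of 4 tested markers called, and erythroid markers to 117 to 514 FPKM and 29.0 to 186 FPKM, with 2 of 5 called lower. Their part in the receptor values was not tested. All 9 receptors had their lowest flow-through value in the library of mouse 1, where 43.4% of tested genes also did. Without that library 2 of the 8 receptors other than Hrh4 were called, and Ptger2 was the one lost (adjusted p = 0.0649).

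The order of mean levels differed between the fractions only in the places of Hrh4 and Ptger1. Hrh4 was chosen for its rise in this contrast, and the level of Ptger1 is uncertain. Ptger4, Adora2a, Ltb4r1, Hrh2, Ptger2, Adora2b and Ptgir kept the same order among themselves. In flow-through, mean FPKM fell from Ptger1 to Ptger4, Adora2a, Ltb4r1, Hrh4, Hrh2, Ptger2, Adora2b and Ptgir. Among neighbors in that order, the library ranges of Ptger4 and Adora2a alone were separate over the mice, and those of the other neighbors overlapped. Read within single libraries, however, each gene was above the next in 4 of 4 flow-through libraries, except Ltb4r1 over Hrh4 (3 of 4) and Adora2b over Ptgir (2 of 4). In IL-18Rα hi the order was Ptger4, Ptger1, Adora2a, Hrh4, Ltb4r1, Hrh2, Ptger2, Adora2b and Ptgir, with separate ranges for Ptger4 and Ptger1, for Hrh4 and Ltb4r1, and for Ltb4r1 and Hrh2. There each gene was above the next in 4 of 4 libraries, except Adora2a over Hrh4 (2 of 4) and Adora2b over Ptgir (3 of 4). Hrh4 thus stood beside Hrh2 and Ltb4r1 in flow-through and beside Adora2a in IL-18Rα hi.

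Of 26 further receptors of these mediators and of catecholamines, 5 passed the filter and 9 were listed at 0 in every library. Tbxa2r, the thromboxane A2 receptor, was lower in IL-18Rα hi (10.3 to 19.8 FPKM in flow-through, 9.50 to 10.7 FPKM in IL-18Rα hi, fold change −0.64, SE 0.18, limma adjusted p = 0.0344), and the call was lost without any one library other than flow-through 1. Cysltr1, Cysltr2 and Ptger3 lie under the level set for naming and were chosen after their values were seen. Both cysteinyl leukotriene receptors were higher, Cysltr1 at 0.518 to 1.06 FPKM in flow-through and 2.38 to 4.89 FPKM in IL-18Rα hi (fold change 1.38, limma adjusted p = 0.00256), and Cysltr2 at 1.23 to 3.03 FPKM and 3.64 to 4.93 FPKM (0.75, adjusted p = 0.0217). The call of Cysltr2 was lost without IL-18Rα hi 2, 3 or 4 (adjusted p up to 0.0627). Ptgdr2, a further prostanoid receptor gene named after its values were seen, did not pass the filter. It lay at 0.108 to 0.340 FPKM in flow-through and 0.855 to 1.33 FPKM in IL-18Rα hi. In the fit without the filter it was higher (0.81, limma adjusted p = 0.00324), where 7.32% of genes were called higher. Ptger3, which encodes the Gi-coupled EP3 receptor, was lower, with 1.495 to 5.10 FPKM in flow-through and 0.764 to 1.27 FPKM in IL-18Rα hi (−0.89, adjusted p = 0.0430), and lost its call without any one IL-18Rα hi library or flow-through 3 (adjusted p up to 0.108). So of the E2 receptors, Gs-coupled Ptger2 and Ptger4 were called higher and Ptger3 was called lower. Among them, Ptger4 alone stayed called without any one library. These calls stand beside 14.1% of all tested genes called higher and 13.7% called lower.

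Of the 14 catecholamine receptors in that list, 6 were listed at 0 in every library.

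**Figure D3:**
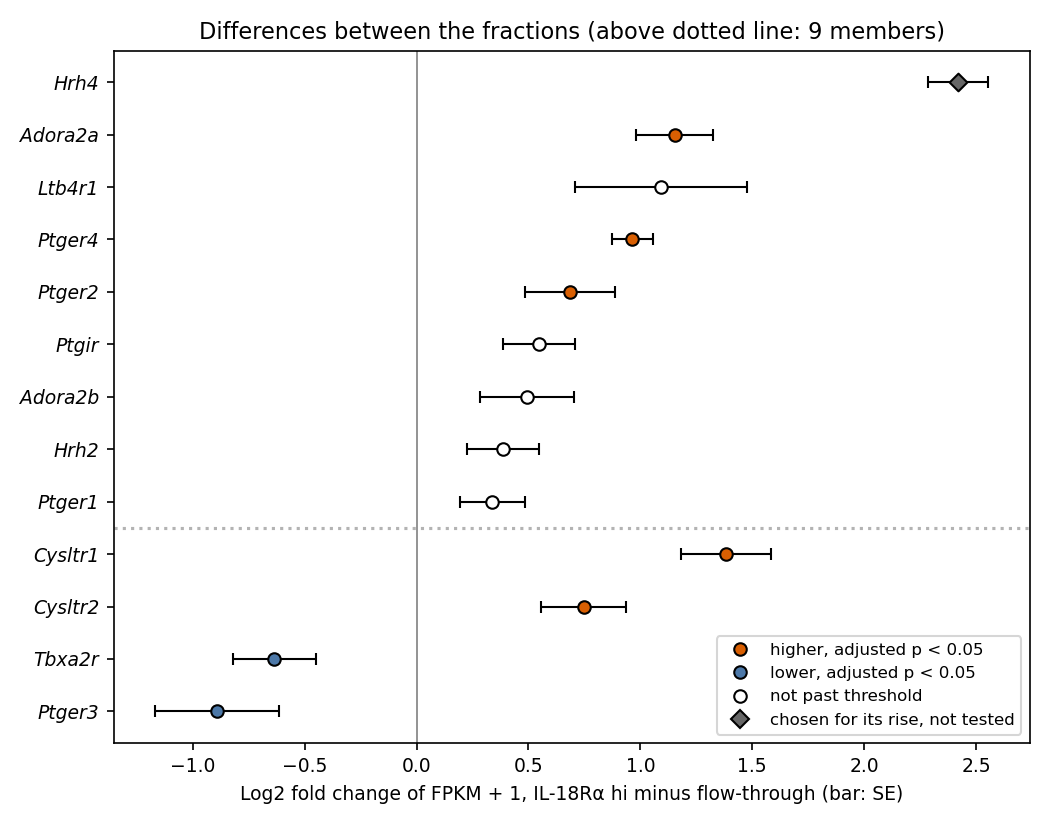
Fold change on the log2(FPKM + 1) scale, IL-18Rα hi minus flow-through, with SE bars, for the 9 receptor genes (above the dotted line) and the 4 further receptors that were called. The 9 genes lie to the right of 0, from 0.34 for Ptger1 to 2.42 for Hrh4, Cysltr1 and Cysltr2 lie to the right too, and Tbxa2r and Ptger3 lie to the left.

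Genes that make or clear the ligands went in both directions. Of 33 listed genes, 22 were tested, 3 were called higher and 6 lower, and the median fold change was −0.16 beside −0.02 over all tested genes. Of all tested genes, 14.1% were called higher and 13.7% lower. With mice as a block, 5 were higher and 9 lower, beside 22.2% and 22.7% of all tested genes. Among adenosine genes, Entpd1 (CD39) and Nt5e (CD73), which encode the ectoenzymes that turn extracellular ATP into adenosine, were higher: Entpd1 at 2.53 to 4.07 FPKM in flow-through and 4.54 to 13.1 FPKM in IL-18Rα hi (0.97, limma adjusted p = 0.0393), and Nt5e at 5.52 to 11.2 FPKM and 12.6 to 14.9 FPKM (0.60, adjusted p = 0.0432). Enzymes that remove adenosine were lower, with Ada, adenosine deaminase, at 6.29 to 8.64 FPKM and 4.65 to 6.36 FPKM (−0.44, adjusted p = 0.0304) and Adk, adenosine kinase, at 43.5 to 73.6 FPKM and 30.4 to 41.9 FPKM (−0.57, adjusted p = 0.0452). Each of these 4 calls was lost without any one of 5 or 6 of the 8 libraries (adjusted p up to 0.117) and under T-cell scaling (0.0886 to 0.146). The libraries concerned were flow-through 1, 3 and 4 and IL-18Rα hi 2 and 4 for Entpd1, flow-through 3 and IL-18Rα hi 1 to 4 for Nt5e, flow-through 1 to 3 and IL-18Rα hi 1, 3 and 4 for Ada, and flow-through 1 and 3 and IL-18Rα hi 1 to 4 for Adk.

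Among prostanoid genes, Pla2g4a, the cytosolic phospholipase A2 that releases arachidonic acid, was lower at 5.31 to 8.37 FPKM in flow-through and 2.60 to 3.61 FPKM in IL-18Rα hi (−0.99, limma adjusted p = 0.00256) and stayed called without any one library. The prostaglandin E synthases Ptges2 (−0.61, adjusted p = 0.0342) and Ptges3 (−0.49, adjusted p = 0.0222) were lower too. The call of Ptges2 was lost without flow-through 3 or 4 or IL-18Rα hi 1, 2 or 4 (adjusted p up to 0.0936), and that of Ptges3 without IL-18Rα hi 2 or 4 or flow-through 3 (up to 0.0659). Hpgd, which encodes the enzyme that inactivates prostaglandin E2 and was chosen after its values were seen, was higher at 0.266 to 0.911 FPKM and 1.24 to 2.41 FPKM (0.73, adjusted p = 0.0232), and lost its call without IL-18Rα hi 3 or 4 (up to 0.0636). Hdc, the enzyme that makes histamine, also chosen after its values were seen, lay at 3.54, 15.3, 5.71 and 8.15 FPKM in flow-through and at 2.81, 15.1, 7.71 and 8.66 FPKM in IL-18Rα hi (0.05, adjusted p = 0.954), with mouse 2 highest and mouse 1 lowest in both.

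**Figure D4:**
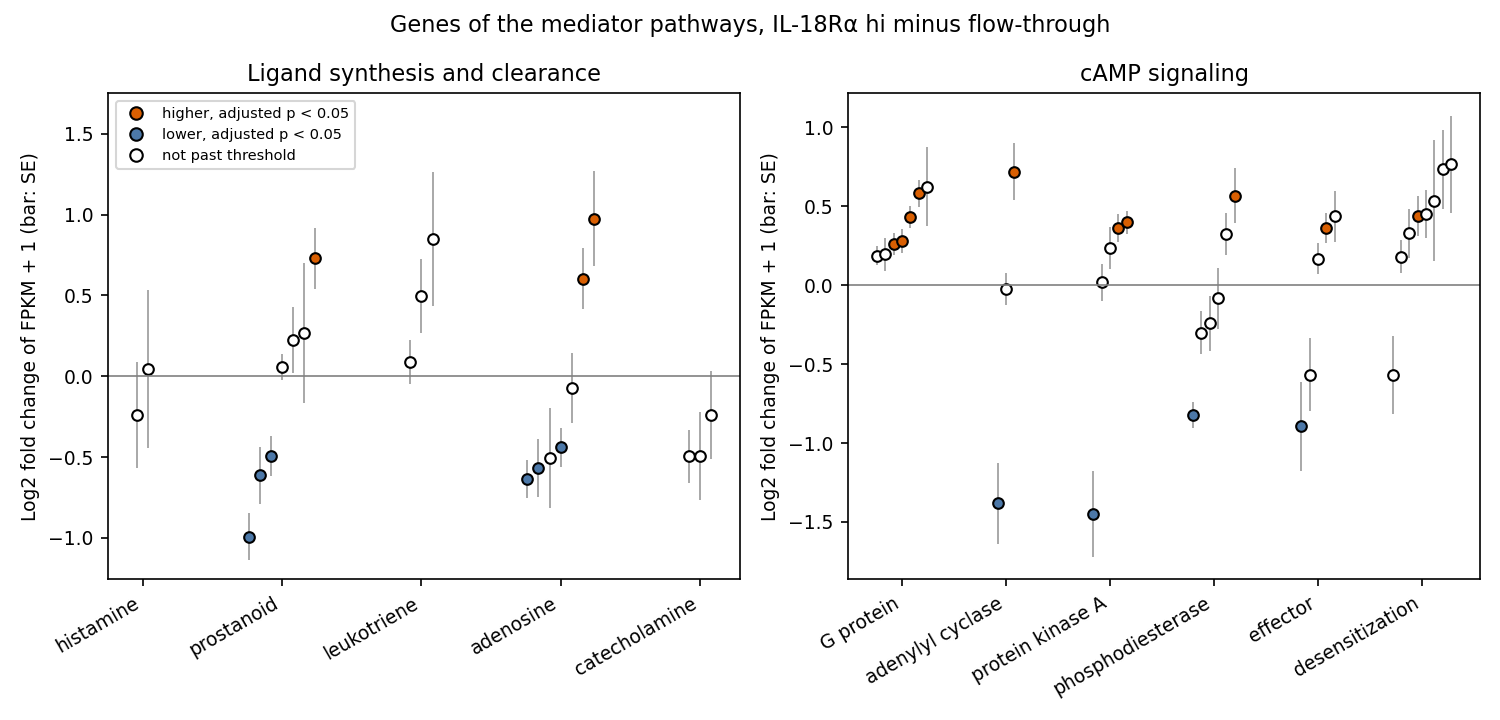
Fold change on the log2(FPKM + 1) scale with SE bars for the tested genes that make or clear the ligands (left, 22 genes) and for those of cyclic AMP signaling (right, 34 genes), each point a gene, grouped by mediator or role. Called genes lie on both sides of 0 in either panel, with 3 higher and 6 lower on the left and 10 higher and 4 lower on the right.

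Of 45 genes of cyclic AMP signaling, 34 were tested, 10 were called higher and 4 lower, and the median fold change was 0.27 beside −0.02 over all tested genes. These counts stand beside the same 14.1% and 13.7% of all tested genes. With mice as a block, 18 were higher and 6 lower (22.2% and 22.7% of all tested genes), while under T-cell scaling 4 of the 34 were called in either direction, where 4.54% of tested genes were called higher and 6.39% lower. Among G-protein genes, Gnai2, the main Gi subunit of lymphocytes, was higher at 267 to 332 FPKM in flow-through and 442 to 463 FPKM in IL-18Rα hi (0.58, limma adjusted p = 0.00265), and so was Gnb1, a β subunit (0.43, adjusted p = 0.00390). Gnai2 and Gnb1 were not called under T-cell scaling (adjusted p = 0.269 and 0.681).

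Adenylyl cyclases, which make cyclic AMP, were called in both directions, as were the subunits of protein kinase A. Adcy6 was lower at 8.68 to 19.0 FPKM in flow-through and 3.16 to 5.81 FPKM in IL-18Rα hi (−1.38, limma adjusted p = 0.00633), and Adcy3 was higher at 3.79 to 7.54 FPKM and 9.81 to 11.7 FPKM (0.72, adjusted p = 0.0205). The call of Adcy3 was lost without IL-18Rα hi 2 (adjusted p = 0.0599) and under T-cell scaling (0.0656). Prkar2b, a regulatory subunit of protein kinase A, was lower at 27.8 to 54.0 FPKM and 9.14 to 18.2 FPKM (−1.45, adjusted p = 0.00695). Of the other protein kinase A subunits, 2 were called higher. For Adcy6 and Prkar2b the order of mice was 1, 3, 4, 2 from high to low in both fractions, as it was for the erythroid marker sum, of which the part was not tested.

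Of the phosphodiesterases, which degrade cyclic AMP, 1 was called lower and 1 higher. Pde4d was lower at 8.55 to 9.94 FPKM in flow-through and 4.51 to 5.02 FPKM in IL-18Rα hi (−0.82, limma adjusted p = 0.000661). It did not overlap between the fractions and stayed called without any one library. Pde8a, under the level set for naming and chosen after its values were seen, was higher. It lay at 1.79 to 3.72 FPKM in flow-through and 4.24 to 4.85 FPKM in IL-18Rα hi (0.57, limma adjusted p = 0.0429). Effectors of cyclic AMP were also called in both directions. Rapgef4, an exchange factor activated by cyclic AMP, was lower (−0.89, adjusted p = 0.0450), but lost its call without any one library other than flow-through 1 (adjusted p up to 0.111). Creb1, chosen after its values were seen, was higher (0.36, limma adjusted p = 0.0248). Grk2, a kinase that desensitizes these receptors, was higher at 128 to 193 FPKM and 214 to 237 FPKM (0.44, adjusted p = 0.0324), and lost its call without any one IL-18Rα hi library or flow-through 3 (up to 0.0865) and under T-cell scaling (0.518).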

How the data were processed

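RNA from 4 flow-through and 4 IL-18Rα hi libraries was analyzed, with groups and replicate numbers taken from the sample labels. Per the labels and the methods of the study, poly(A) RNA was made into stranded paired-end libraries, reads of low quality were removed, and the authors mapped the rest to mm10 with TopHat and deposited FPKM from Cufflinks 2.1.1, with corrections for multiple mapping and fragment bias. The methods leave the remaining Cufflinks settings at default, which does not use strand, and the annotation release was not given in the sources used here. FPKM keep no counts, so no count model was used, and depth was estimated from the smallest values of single-transcript genes.

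Of 47493 gene identifiers, 98.9% were found in GENCODE M21, from which coordinates were taken. There were 27 names turned into dates, which were restored. limma 3.58.1 in R 4.3.3 was fitted to log2(FPKM + 1) with a variance trend, over the 12166 genes that averaged 1 FPKM or more, and p-values were adjusted by Benjamini-Hochberg. It was tested on simulated data. A fold change on this scale understates the change of low genes. Alternatives were other filters, a pseudocount of 0.1, median-ratio and T-cell scaling, the mouse as a block, and leaving out each library in turn.

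Both fractions came from the same mice, and deviations from the group means correlated between same-numbered libraries (r = 0.66, 0.589, 0.308 and 0.471 for mice 1 to 4). Between libraries of unlike number r ran from −0.60 to 0.412, so some of these also correlated. Each library had its highest r with the same-numbered library of the other fraction, so the numbers were taken to pair the samples. The study's comparison was unpaired, which the main test follows. The members and gene lists were chosen with earlier results of these data known. Genes of the lists were named if called and averaging 5 FPKM or more where higher, at most 8 per list, together with expressed catecholamine receptors and genes overlapping a member. Grk2 is Adrbk1 in the table. Likeness was the Pearson r of log2(FPKM + 1) over 8 libraries. Some genes that this rule names are not reported here. The p-values measure the spread between these 4 mice.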

Additional observations from a re-analysis of the deposited data

Results flagged for a closer look

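A library that stood apart from the other 3 of its fraction by Dixon's criterion was found for 3 of 60 sets of 4 values, and chance alone gives 3. Adcy3 was at 3.79 FPKM in flow-through 1 against 6.97 to 7.54 FPKM for mice 2 to 4. Gnb1 was at 216 FPKM in IL-18Rα hi 1 against 195 to 198 FPKM, and Cysltr2 was at 3.64 FPKM in IL-18Rα hi 1 against 4.72 to 4.93 FPKM.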

How the results depend on the processing

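No fold change of the 9 receptors or of the genes named by rule reversed its sign under the alternatives run. With mice as a replicate block, 2705 genes were called higher and 2763 lower, with 8 receptors other than Hrh4, 14 metabolism genes and 24 cyclic AMP genes called; the block changed no other call of a named gene than those of Hrh2, Ptger1, Ptgir, Adora2b and Ltb4r1. Under T-cell scaling the counts were 552, 778, 2, 2 and 4 in the same order. Other mediator receptors called fell from 4 to 1 with a filter of 5 FPKM, where fewer genes are tested, and to 2 without a filter. Those 2 include Ptgdr2, which is not in the main fit. The fit without a filter left 5 metabolism genes called. It lost the calls of Ptger2, Tbxa2r, Ptger3, Cysltr2, Entpd1, Nt5e, Ada, Adk, Ptges2, Rapgef4 and Grk2. T-cell scaling also lost Ptges2, Ptges3, Ptger3, Cysltr2 and Hpgd, and median-ratio scaling lost Adk. Leaving out each library in turn gave 1124 to 1802 genes higher (fewest without IL-18Rα hi 2), 940 to 1781 lower (fewest without flow-through 3), 2 to 4 receptors other than Hrh4, 1 to 5 other mediator receptors, 2 to 8 metabolism genes (fewest without IL-18Rα hi 4) and 8 to 16 cyclic AMP genes. The causes were not tested. Ptgir and Adora2b had the lowest mean levels of the 9 genes in both fractions, and low depth limits their values.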

Other observations

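Over the 8 libraries, the tested genes whose log2(FPKM + 1) ran closest to Hrh4 were Crmp1 (r = 0.998), Zdhhc2 and Actg2, and Crmp1 lay at 4.43 to 7.02 FPKM in flow-through and 21.5 to 25.7 FPKM in IL-18Rα hi. For Ptger4 they were Ccr8 (r = 0.998), a chemokine receptor gene at 1.55 to 3.26 FPKM and 11.4 to 14.7 FPKM, Capg and Smad3. For Adora2a they were Anxa4 (r = 0.996), Zyx and Il12rb2, a subunit of the IL-12 receptor. For Ltb4r1 they were Arid3a (r = 0.997), Gnaq and Pld4. For Ptger2 they were Plxnd1 (r = 0.992), C1qtnf6 and Nav1, for Ptger1 Fbxo17 (r = 0.991), Zfp36l1 and Mllt6, and for Hrh2 Pxk (r = 0.987), Cd300lf and Rassf1. The points share 4 mice and 2 fractions, so any gene that differs between the fractions runs alongside, and these values describe likeness alone.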
